A study of Setaria italica with 18 samples.

Results

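The genes described here encode the light receptors of foxtail millet (Setaria italica), the proteins named for their contact with phytochrome, the CONSTANS family and the florigen group of flowering regulators. They were all the genes whose description in the deposited table contained phytochrome, cryptochrome, phototropin, CONSTANS, heading date or FLOWERING LOCUS T. This gave 49 of 29108 genes, of which 3 encode phytochromes, 4 cryptochromes, 3 phototropins, 12 phytochrome partners, 17 CONSTANS or CONSTANS-like (COL) proteins, and 10 HEADING DATE or FLOWERING LOCUS T proteins and their relatives. The rule used descriptions alone, but it was set with earlier results of these data known.

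The libraries were made from seedling leaves of 2 varieties, the salt-tolerant JK3 and the salt-sensitive B175, that had been under 75% artificial seawater for 0, 12 or 24 h. The 6 groups were J0, J12 and J24 for JK3 and B0, B12 and B24 for B175, with 3 libraries each. The seedlings were grown in a climate chamber with 12 h of day and 12 h of night, so the 0 and 24 h samples shared a phase of the light cycle and the 12 h samples fell in the other. No untreated seedlings of 12 or 24 h were analysed here, so at these times the treatment, the time of day and further growth cannot be told apart.

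Phytochromes sense red and far-red light, and cryptochromes and phototropins sense blue light. Phytochromes in their active form bind transcription factors of the phytochrome-interacting family and lead to their breakdown, while phototropins direct bending towards light, chloroplast movement and the opening of stomata. CONSTANS is a B-box zinc finger protein whose transcript and protein depend on the circadian clock and on light. In Arabidopsis it switches on FLOWERING LOCUS T in the leaf, and in rice its counterpart acts on HEADING DATE 3A (HD3A), which encodes the mobile flowering signal called florigen. Foxtail millet flowers earlier in short days.

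The values are FPKM, the fragments mapped to a gene divided by gene length and by how many fragments the library had mapped. Groups were compared with limma on log2(FPKM + 1), fitted over all 23824 genes with a mean of at least 0.1 FPKM. A gene was called up- or down-regulated at an absolute log2 fold change above 1 and a Benjamini-Hochberg adjusted p under 0.05. Fold changes on this scale understate the change of genes at low FPKM. The p-values rest on the spread between libraries within groups, pooled over all 6 groups and moderated by the spread of other genes. The study describes the 3 libraries of a group as biological replicates. An exact permutation test of 3 against 3 could not have given a p below 0.1.

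The libraries held 34738627 to 38798886 fragments on genes. The summed FPKM of 27 leaf marker genes (chlorophyll a-b binding proteins, small subunits of ribulose bisphosphate carboxylase and enzymes of C4 photosynthesis), all of them detected, lay at 27318 to 29934 in J0, 4354 to 4994 in J12 and 16288 to 22424 in J24. In B175 it lay at 42318 to 52491 in B0, 7129 to 10415 in B12 and 17314 to 39423 in B24. The 3 root markers (Casparian strip membrane proteins) summed to at most 1.18 FPKM in any library. The 8 knotted-1 homeobox genes (listed for shoot apex and stem) summed to 394 to 854 FPKM. The 54 MADS-box and storage protein genes (listed for panicle and grain) summed to 561 to 861 FPKM. Both lists were taken by description alone, and the second holds genes such as SOC1 (mean 63.2 FPKM over all libraries). Which tissue these sums came from was not tested. The top 100 genes by FPKM held 12.8 to 13.7% of fragments at 12 h and 19.7 to 29.3% at the other times. The median log2 fold change over all genes tested was 0.37 in J12 vs J0 and 0.43 in B12 vs B0, and 0.01 in both after median-ratio scaling of the libraries. The 12 h fold changes of the individual genes of the set are therefore given also after this scaling ("scaled" below). The part of these library-wide shifts in the results was not tested, and in leaf tissue fewer cells of a type and less RNA per cell cannot be told apart. Library 2 of B24 stood apart from its group (Pearson r of log2(FPKM + 1) with another B24 library down to 0.940 across genes, which are not independent replicates).

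Of the 49 genes, 46 passed the filter on low values and 42 had fragments in all 18 libraries. Their median mean level was 19.6 FPKM, against 9.34 FPKM for all genes tested. The highest was COL5 Seita.4G192300 with a mean of 699 FPKM over all libraries, and the lowest of those tested was COL2 Seita.3G212400 with 0.128 FPKM. The 3 genes left out included PIL15 Seita.7G239800 with 6 fragments in all and HD3A Seita.3G177300 with 16. The genes lie on all 9 chromosomes, with 10 of them on chromosome 9 and 1 on chromosome 8. The chromosomes are those named in the gene identifiers.

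**Figure D1:**
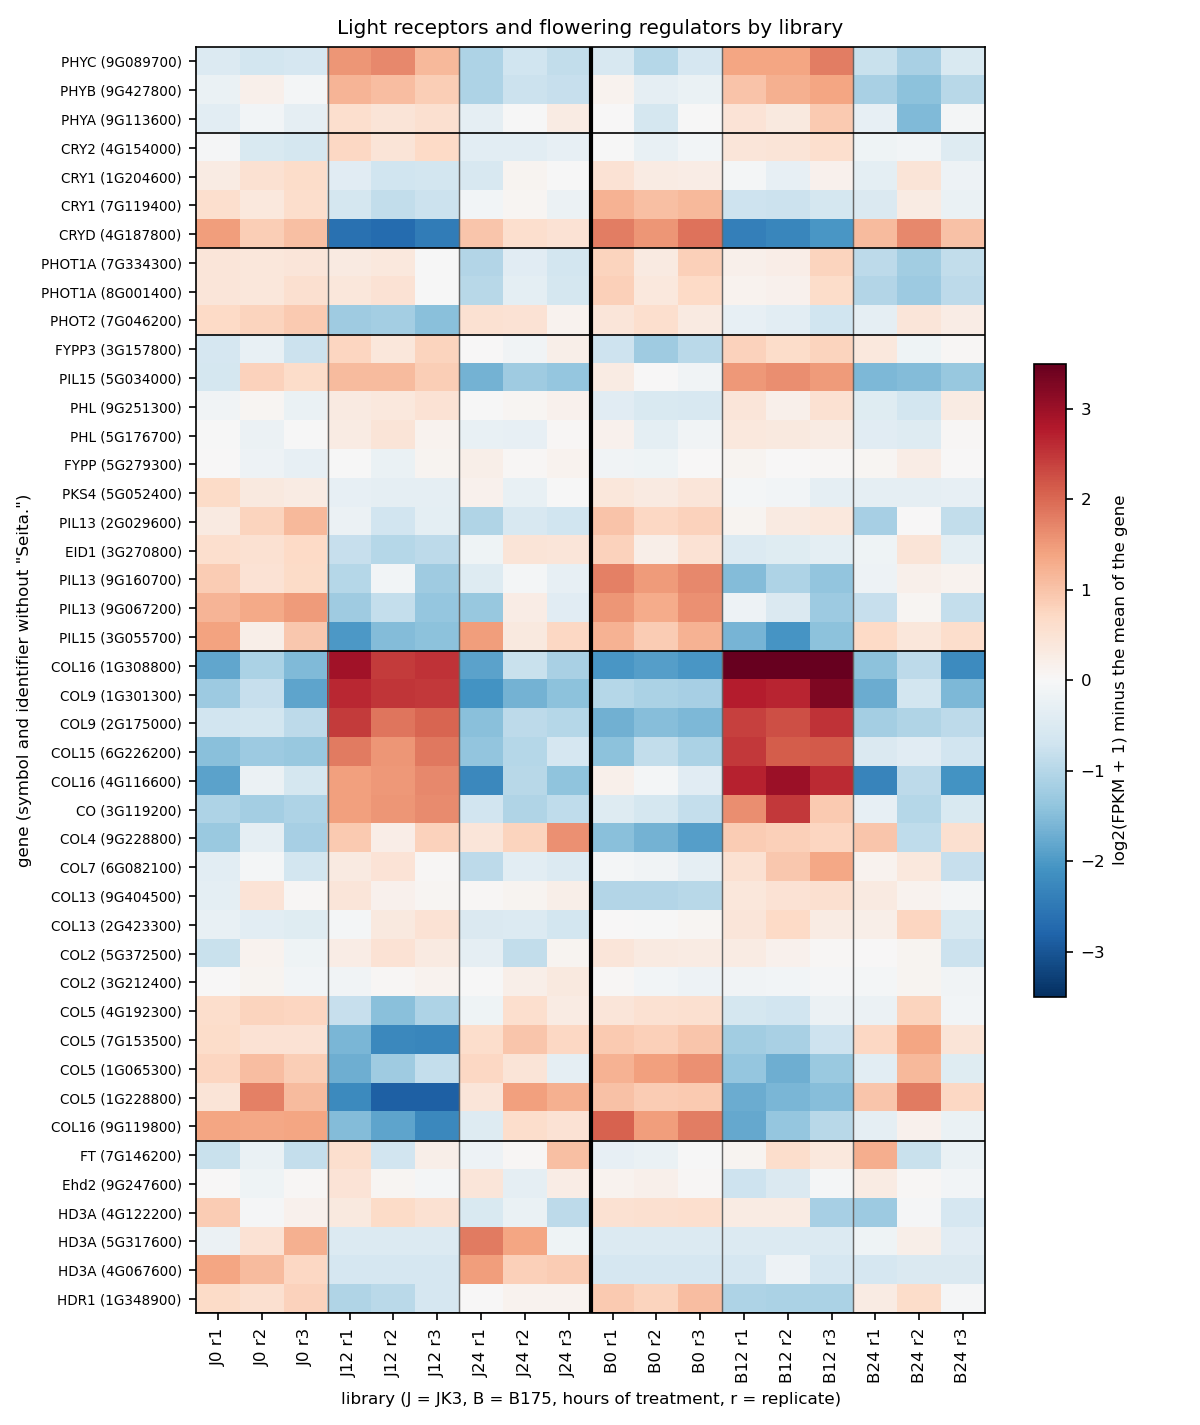
Heat map of log2(FPKM + 1) minus the mean of each gene over the 18 libraries (colour) for 44 of the 46 genes tested (rows, grouped by role from phytochromes at the top to florigen genes at the bottom) in each library (columns, JK3 left and B175 right). The 12 h columns of both varieties stand out in opposite colours for COL16 Seita.1G308800 (39.1 FPKM in J12, against 1.32 FPKM in J0) and CRYD (4.06 FPKM in J12, against 66.5 FPKM in J0).

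At 12 h most of the tested genes had changed in each variety. In J12 vs J0, 27 of 46 genes (58.7%) were called, 11 up and 16 down, against 31.6% of all genes tested (24% up and 7.67% down). In B12 vs B0, 25 of 46 (54.3%) were called, 13 up and 12 down, against 37.8% of all genes (28% up and 9.81% down). After scaling these were 25 genes in JK3 (8 up and 17 down) and 26 in B175 (9 up and 17 down), against 25.1% of all genes in JK3 (12.7% up and 12.4% down) and 31.4% in B175 (15.4% up and 16.1% down). The median log2 fold change of the 46 genes was 0.10 in JK3 and -0.02 in B175, and after scaling it was -0.38 and -0.39. Of these calls, 10 genes were up in both, 11 were down in both and 0 went opposite ways, while 6 were called in JK3 alone and 4 in B175 alone. Of all genes, 19.1% were up in both and 6.01% down in both, 6.38% were called in JK3 alone and 12.6% in B175 alone, against 13.0% and 8.70% of the 46. A call in a single variety does not show a difference between the varieties, which was tested by the interaction.

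Among the phytochromes, PHYC (Seita.9G089700) and PHYB (Seita.9G427800) were up-regulated at 12 h in both varieties. Both are stable in light, and PHYB is the main red light receptor of green plants. PHYC was at 34.6, 38.2 and 26.1 FPKM in J12, against 7.84, 6.90 and 7.18 FPKM in J0, a log2 fold change of 2.02 ± 0.20 (SE, limma adjusted p = 4.82e-07, scaled 1.48). It was at 30.9, 31.2 and 41.7 FPKM in B12, against 7.40, 5.13 and 7.15 FPKM in B0 (log2 fold change 2.24 ± 0.20, adjusted p = 1.07e-07, scaled 1.63). The 12 h libraries lay above the 0 h libraries without overlap, and at 24 h the gene was back at 4.82, 6.60 and 5.70 FPKM in J24 and 6.15, 4.58 and 7.49 FPKM in B24.

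PHYB was at 32.3, 29.8 and 25.6 FPKM in J12, against 11.5, 15.4 and 12.9 FPKM in J0 (log2 fold change 1.09 ± 0.18, adjusted p = 9.10e-05). Without library 1 of J0 this change was 0.995, under the fold limit. In B12 PHYB was at 28.4, 33.8 and 36.9 FPKM, against 14.99, 10.7 and 11.4 FPKM in B0 (1.35 ± 0.18, adjusted p = 7.44e-06). With scaling the increase was 0.54 and 0.73, below the fold limit. PHYB lay at 24 h below its starting level, at 5.98, 7.76 and 7.38 FPKM in J24 and 5.64, 4.37 and 6.52 FPKM in B24. This was a call in B24 vs B0 (-1.04 ± 0.18, adjusted p = 4.08e-04) and not in J24 vs J0 (-0.82 ± 0.18, adjusted p = 0.00696). The B175 change fell under the fold limit without library 2 of B24 (-0.91) or library 1 of B0 (-0.90). Neither group at 24 h overlapped its 0 h group.

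PHYA (Seita.9G113600), the receptor of far-red and very weak light, averaged 42.3 ± 2.16 FPKM in J12, against 24.1 ± 2.47 FPKM in J0 (SD, n = 3 each). It averaged 44.8 ± 9.92 FPKM in B12, against 25.5 ± 6.01 FPKM in B0. Its log2 fold changes of 0.79 in JK3 and 0.80 in B175 were under the fold limit and fell to 0.23 and 0.16 with scaling. Its group mean was the highest of the 3 phytochromes in each of the 6 groups. The call of PHYA in B24 vs B12 (-1.21, adjusted p = 0.00327) rested on library 2 of B24, the lowest of all at 9.25 FPKM, and became -0.75 without it.

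The cryptochromes split. CRYD (Seita.4G187800), which encodes the DASH type of cryptochrome known in Arabidopsis to repair ultraviolet damage in single-stranded DNA of chloroplasts and mitochondria, showed the largest decrease of the light receptors. It was at 3.94, 3.66 and 4.57 FPKM in J12, against 83.5, 54.2 and 61.7 FPKM in J0 (log2 fold change -3.72 ± 0.20, adjusted p = 4.59e-10, scaled -4.20). In B175 it was at 4.79, 5.23 and 6.37 FPKM in B12, against 104, 88.0 and 114 FPKM in B0 (-3.99 ± 0.20, adjusted p = 1.71e-10, scaled -4.58). The 12 h libraries held at most 6.37 FPKM and all others at least 42.0 FPKM. By 24 h CRYD had risen again to 59.1, 44.9 and 42.0 FPKM in J24 and 64.7, 96.8 and 60.5 FPKM in B24, and neither 24 h group differed from its 0 h group by the fold limit (-0.44 and -0.48).

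CRY1 and CRY2 encode the blue light receptors of the nucleus and cytoplasm, which act on seedling growth and flowering. The more abundant CRY1 gene, Seita.7G119400, was at 36.5, 30.3 and 33.1 FPKM in J12, against 85.5, 72.4 and 87.0 FPKM in J0 (-1.27 ± 0.16, adjusted p = 7.91e-06, scaled -1.82). It was at 33.6, 33.4 and 36.6 FPKM in B12, against 133, 118 and 126 FPKM in B0 (-1.83 ± 0.16, adjusted p = 1.01e-07, scaled -2.48). The 12 h levels of the varieties overlapped although B0 lay wholly above J0. The gene remained down-regulated in B24 vs B0 (-1.29, adjusted p = 2.98e-05) and was -0.59 in J24 vs J0 (adjusted p = 0.0224), under the fold limit.

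The other CRY1 gene, Seita.1G204600, was down-regulated in J12 (36.3, 29.6 and 30.4 FPKM, against 59.2, 70.5 and 75.7 FPKM in J0; -1.07 ± 0.21, adjusted p = 3.88e-04, scaled -1.62). The fold change was -0.99, under the limit, without library 3 of J0. In B12 vs B0 its log2 fold change was -0.41 (adjusted p = 0.095), and -1.06 with scaling, which was a call. CRY2 (Seita.4G154000) went the other way on the deposited scale, with 22.0, 18.3 and 21.6 FPKM in J12, against 12.6, 8.71 and 8.07 FPKM in J0 (1.02 ± 0.16, adjusted p = 5.89e-05). The CRY2 call was lost with scaling (0.49) and without any one of 4 of the JK3 libraries (0.91 to 0.99). In B12 vs B0 its log2 fold change was 0.61, and -0.01 with scaling, so that relative to all genes it had no direction there.

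**Figure D2:**
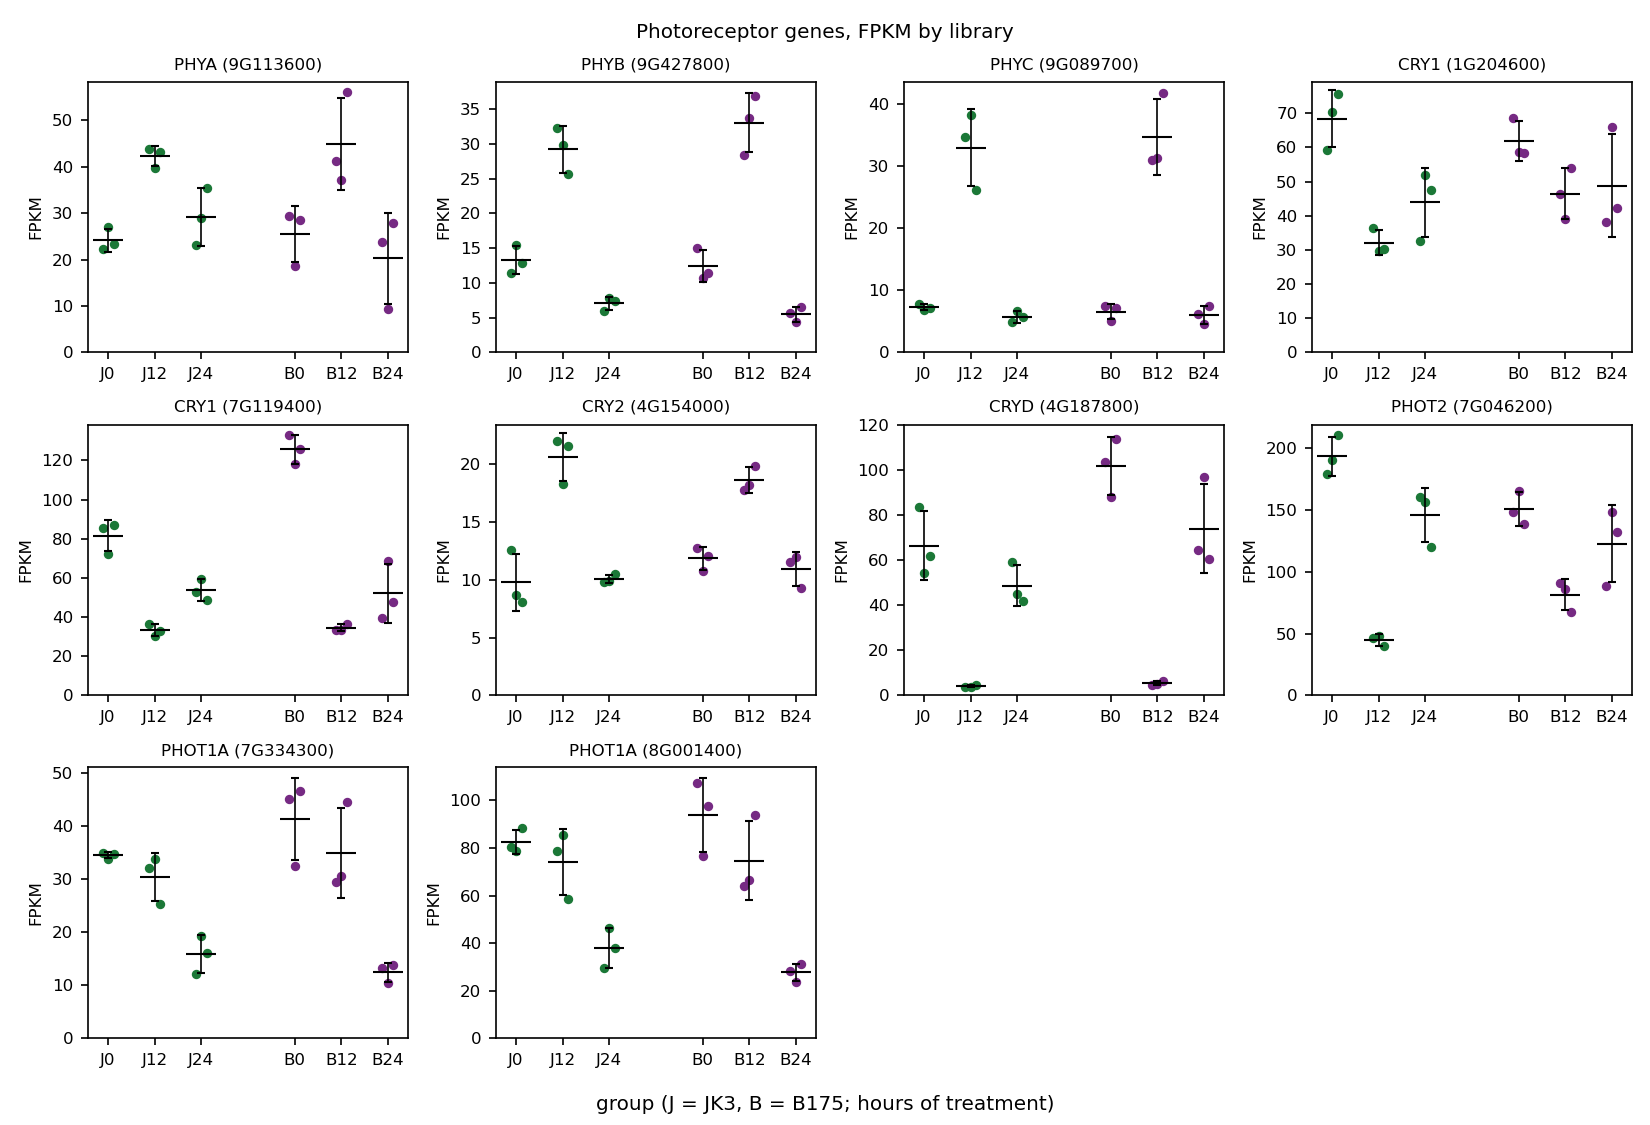
FPKM (vertical axes, linear from 0) of the 10 light receptor genes in each library (points) by group (JK3 left, B175 right), with the mean and SD of 3 libraries (bars). PHYC and PHYB peak at 12 h in both varieties, CRYD is at most 6.37 FPKM at 12 h, and the PHOT1A genes are lowest at 24 h (15.9 FPKM in J24 and 12.4 FPKM in B24 for Seita.7G334300).

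The phototropins fell into 2 patterns in time. PHOT2 (Seita.7G046200), the phototropin that in Arabidopsis moves chloroplasts away from strong light, was at 46.5, 48.3 and 39.6 FPKM in J12, against 179, 190.3 and 211 FPKM in J0 (-2.09 ± 0.18, adjusted p = 1.25e-07, scaled -2.65). In B175 it was at 91.1, 85.9 and 67.6 FPKM in B12, against 148, 166 and 138 FPKM in B0 (-0.89 ± 0.18, adjusted p = 5.73e-04), just under the fold limit and past it with scaling (-1.54). At 24 h it was back at 146 ± 22.1 FPKM in J24 and 123 ± 31.1 FPKM in B24 (SD, n = 3 each).

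The PHOT1A genes instead were lowest at 24 h. Seita.8G001400 was at 29.5, 46.6 and 38.1 FPKM in J24, against 80.3, 78.9 and 88.4 FPKM in J0 (-1.12 ± 0.20, adjusted p = 0.00262). In B24 it was at 28.4, 23.9 and 31.1 FPKM, against 107, 76.8 and 97.6 FPKM in B0 (-1.71 ± 0.20, adjusted p = 1.27e-05). Its 12 h change was -0.17 in JK3 (scaled -0.73) and -0.33 in B175 (scaled -0.98). Seita.7G334300 followed it, with 12.2, 19.2 and 16.1 FPKM in J24, against 34.8, 33.8 and 34.7 FPKM in J0 (-1.09, adjusted p = 0.00283), and 13.2, 10.4 and 13.7 FPKM in B24, against 45.0, 32.5 and 46.5 FPKM in B0 (-1.65, adjusted p = 1.87e-05). Without library 1 of J24 the JK3 changes were -0.95 and -0.93, under the fold limit. The ratio of their FPKM stayed between 2.10 and 2.55 in all 18 libraries. How reads shared by such copies were counted is not given in the sources used here, so the pair may not be independent.

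Of the 11 phytochrome partners tested, J12 had 1 up and 5 down against J0, and B12 had 2 up and 3 down against B0 (with scaling 0 up and 5 down in J12, and 1 up and 5 down in B12). The genes that fell were mostly PIL genes, whose products belong to the phytochrome-interacting factors, transcription factors that phytochrome acts on. PIL13 Seita.9G067200, the most abundant PIL gene, was at 22.5, 30.3 and 20.6 FPKM in J12, against 125, 139 and 154 FPKM in J0 (-2.47 ± 0.34, adjusted p = 1.76e-05, scaled -3.02). It was at 48.1, 37.7 and 22.1 FPKM in B12, against 160.3, 136 and 166 FPKM in B0 (-2.13 ± 0.34, adjusted p = 5.79e-05, scaled -2.77). It was still down-regulated at 24 h, at 21.3, 65.6 and 40.8 FPKM in J24 and 30.7, 57.4 and 29.96 FPKM in B24. The log2 fold change from 0 h was -1.82 (limma adjusted p = 0.00344) in JK3 and -2.00 (adjusted p = 4.03e-04) in B175.

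PIL15 Seita.3G055700 fell at 12 h and recovered. It was at 2.41, 3.78 and 4.07 FPKM in J12, against 35.6, 14.7 and 25.5 FPKM in J0 (-2.51 ± 0.30, adjusted p = 3.88e-06, scaled -2.97), and at 3.40, 2.26 and 4.04 FPKM in B12, against 30.9, 24.6 and 31.1 FPKM in B0 (-2.83 ± 0.30, adjusted p = 7.44e-07, scaled -3.39). At 24 h it lay at 36.8, 16.4 and 21.6 FPKM in J24 and 21.1, 17.2 and 19.9 FPKM in B24. The other PIL15 gene tested, Seita.5G034000, went the opposite way, with 38.9 ± 4.02 FPKM in J12, against 24.8 ± 11.4 FPKM in J0, and 55.9 ± 2.93 FPKM in B12, against 19.5 ± 2.88 FPKM in B0. Only B12 vs B0 was a call (1.48, adjusted p = 1.55e-04), and it was lost with scaling (0.85). At 24 h this gene was down-regulated in both varieties, to 5.18, 7.25 and 6.61 FPKM in J24 (-1.70, adjusted p = 0.00139) and 5.51, 5.80 and 6.76 FPKM in B24 (-1.54, adjusted p = 4.20e-04).

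The PIL13 gene Seita.2G029600 had its lowest group mean at 24 h on the deposited scale. At 0, 12 and 24 h it averaged 26.8, 11.4 and 8.64 FPKM in JK3 and 28.4, 18.6 and 9.89 FPKM in B175. The J12 vs J0 change was a call (-1.14, scaled -1.67) that fell under the fold limit without library 3 of J0 (-0.94). The B12 vs B0 change was a call only with scaling (-0.58, scaled -1.21). The groups overlapped in J24 vs J12 (-0.37, adjusted p = 0.271), where scaling turned the sign (0.09). Its 24 h values were calls against 0 h in both varieties (-1.504 with adjusted p = 0.00262 in JK3, and -1.52 with adjusted p = 4.54e-04 in B175). FYPP3 (Seita.3G157800), a phosphatase catalytic subunit that binds phytochrome in Arabidopsis, rose at 12 h to 33.7, 25.8 and 34.1 FPKM in J12, against 12.7, 16.0 and 11.1 FPKM in J0 (1.18 ± 0.18, adjusted p = 4.96e-05, scaled 0.63, not a call). In B12 it was at 35.0, 31.3 and 34.3 FPKM, against 11.3, 7.63 and 9.56 FPKM in B0 (1.73 ± 0.18, adjusted p = 6.45e-07, scaled 1.11). The related FYPP gene Seita.5G279300 was the steadiest of the tested genes in deposited FPKM, at 77.3 to 114.7 FPKM in every library, with its highest group mean 1.21 times its lowest.

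EID1 (Seita.3G270800), an F-box protein of far-red signalling in Arabidopsis, was down-regulated in J12 vs J0 (-1.51, adjusted p = 1.92e-05, scaled -2.01) and under the fold limit in B12 vs B0 (-0.91, adjusted p = 0.00142), where it was a call with scaling (-1.52). PKS4 (Seita.5G052400), named as a substrate of phytochrome kinase, was named after its values were seen. It was never called, but it was a low gene, with 3 fragments in the J12 libraries together, against 120 in J0, a ratio of 0.0245 with a 95% counting interval of 0.00499 to 0.0734 (exact binomial, counting error only). In B24 it had 3 fragments, against 110 in B0 (ratio 0.0279, interval 0.00567 to 0.0838).

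**Figure D3:**
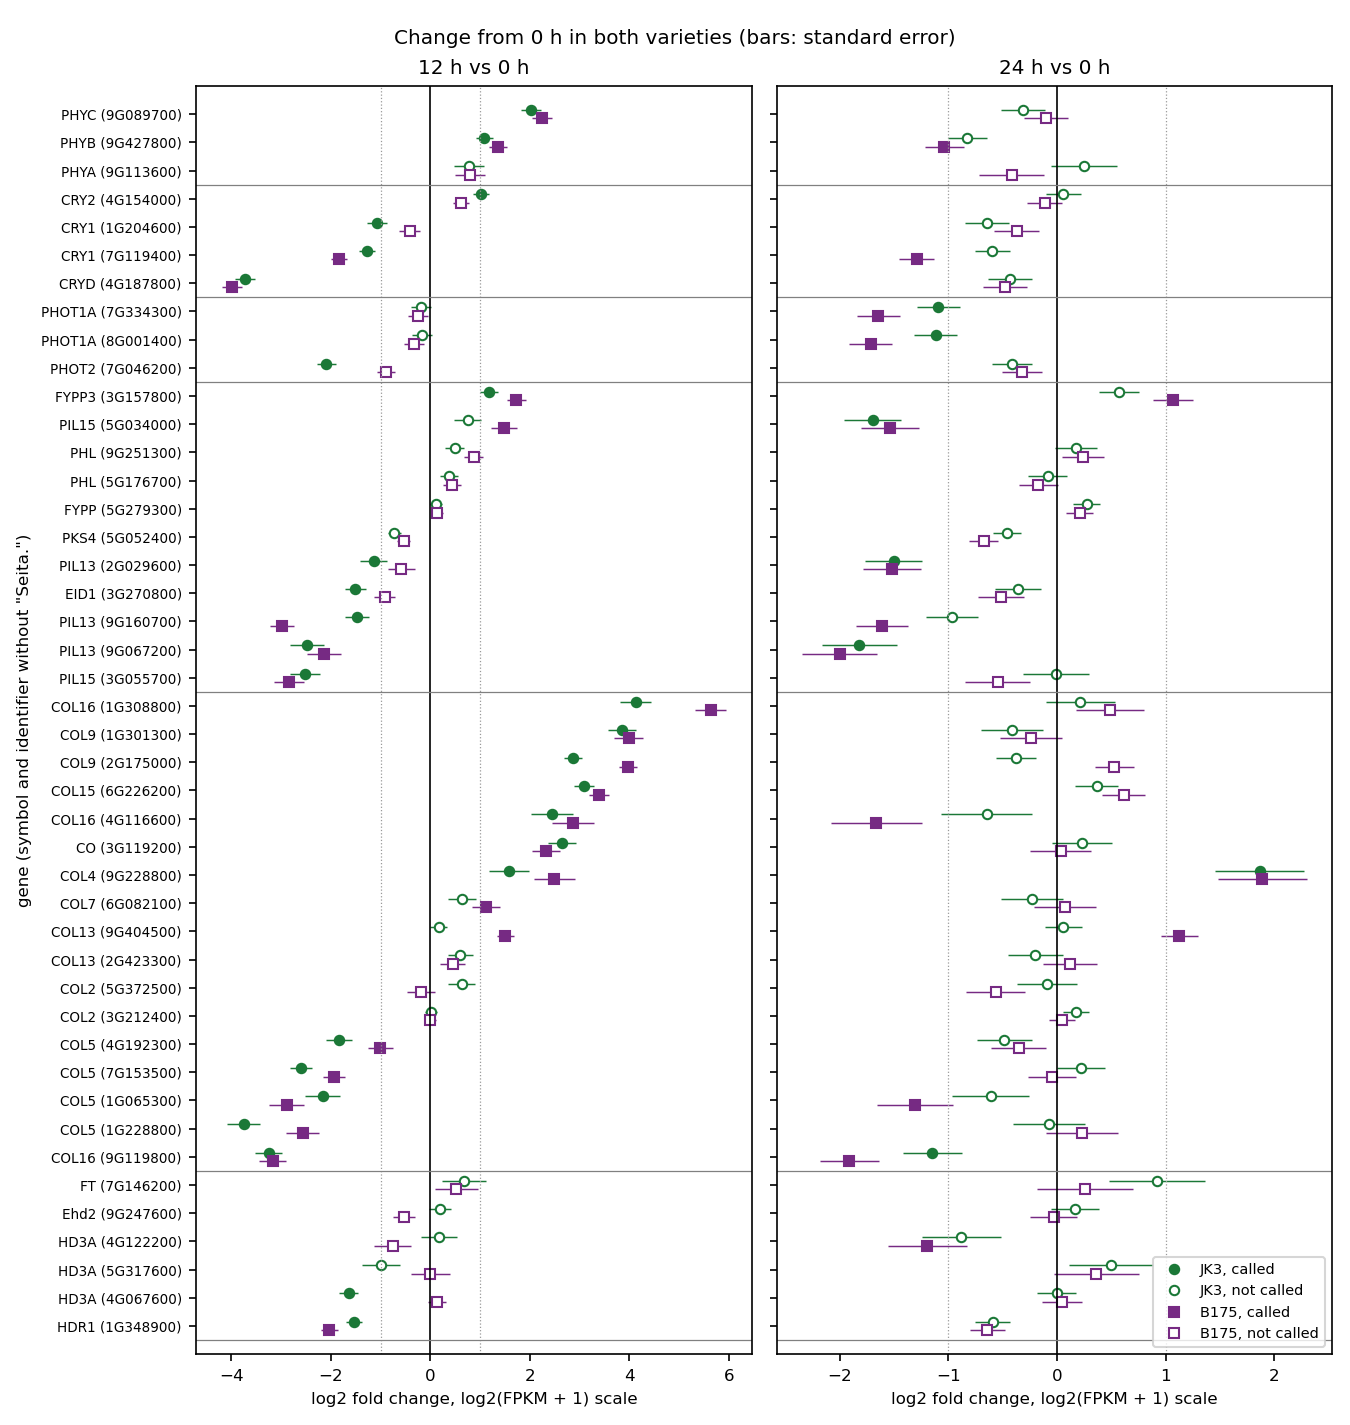
Log2 fold change on the log2(FPKM + 1) scale (horizontal axes) at 12 h (left) and 24 h (right) against 0 h for 44 of the 46 genes tested (rows) in JK3 (green circles, drawn above) and B175 (purple squares, drawn below), with standard errors (bars) and the fold limits of 1 and -1 (dotted lines). Filled symbols are calls. The 12 h changes run from -3.99 for CRYD to 5.63 for COL16 Seita.1G308800, both in B175, and the 24 h changes drawn run from -2.00 for PIL13 Seita.9G067200 to 1.89 for COL4, both in B175.

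The CONSTANS family held the largest increases. Of its 17 genes, all tested, J12 had 7 up and 5 down against J0 (the same numbers with scaling), and B12 had 9 up and 5 down against B0 (7 up and 5 down with scaling). CONSTANS itself (CO, Seita.3G119200) was at 198, 214 and 229 FPKM in J12, against 34.1, 31.5 and 34.0 FPKM in J0 (2.65 ± 0.28, adjusted p = 8.90e-07, scaled 2.09). It was at 229, 412 and 138 FPKM in B12, against 52.5, 47.4 and 40.2 FPKM in B0 (2.32 ± 0.28, adjusted p = 2.66e-06, scaled 1.67). The 3 libraries of B12 were spread widely, but the lowest of them lay above every 0 h library. At 24 h CO was again at 45.1, 34.3 and 38.5 FPKM in J24 and 59.0, 36.1 and 50.2 FPKM in B24.

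The genes that rose furthest were COL16 Seita.1G308800, the COL9 genes and COL15. COL16 Seita.1G308800 was at 47.9, 33.5 and 35.8 FPKM in J12, against 0.811, 1.98 and 1.18 FPKM in J0 (4.12 ± 0.32, adjusted p = 2.56e-08, scaled 3.64). In B12 it was at 70.2, 69.8 and 95.4 FPKM, against 0.544, 0.673 and 0.555 FPKM in B0 (5.63 ± 0.32, adjusted p = 5.73e-10, scaled 5.16). COL9 delays flowering in Arabidopsis, and both genes of that name rose in both varieties. Seita.1G301300 was at 98.1, 89.2 and 87.1 FPKM in J12, against 5.62, 8.03 and 3.39 FPKM in J0 (3.85, scaled 3.31), and at 106, 99.8 and 150.3 FPKM in B12, against 6.92, 6.41 and 6.07 FPKM in B0 (3.98, scaled 3.37). Seita.2G175000 was at 62.3, 41.5 and 46.9 FPKM in J12, against 6.34, 6.41 and 5.11 FPKM in J0 (2.87, scaled 2.33), and at 60.1, 54.1 and 66.6 FPKM in B12, against 2.62, 3.17 and 2.90 FPKM in B0 (3.97, scaled 3.39). The adjusted p of these 4 comparisons lay between 6.21e-11 and 1.73e-08.

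COL15 (Seita.6G226200) was at 51.4, 42.5 and 51.9 FPKM in J12, against 4.36, 5.18 and 4.94 FPKM in J0 (3.09, adjusted p = 3.50e-09, scaled 2.56), and at 81.2, 63.2 and 64.7 FPKM in B12, against 4.43, 7.21 and 5.80 FPKM in B0 (3.39, adjusted p = 9.33e-10, scaled 2.77). COL16 Seita.4G116600 rose at 12 h as well, to 12.5, 13.3 and 15.2 FPKM in J12, against 0.372, 3.33 and 2.28 FPKM in J0 (2.44, adjusted p = 1.31e-04, scaled 1.97), and 31.4, 38.9 and 29.8 FPKM in B12, against 4.65, 3.78 and 2.80 FPKM in B0 (2.87, adjusted p = 2.03e-05, scaled 2.28). At 24 h it was called down against 0 h in B175, at 0.0206, 1.68 and 0.175 FPKM in B24 (-1.67 ± 0.42, adjusted p = 0.00615), and was at 0.0430, 1.57 and 0.887 FPKM in J24 (-0.65, adjusted p = 0.316).

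The genes that fell were the 4 COL5 genes and the third COL16 gene. COL16 Seita.9G119800 was at 23.3, 18.5 and 13.7 FPKM in J12, against 180.3, 178 and 181 FPKM in J0 (-3.24 ± 0.27, adjusted p = 7.04e-08, scaled -3.79). It was at 19.0, 26.2 and 34.4 FPKM in B12, against 293, 193 and 241 FPKM in B0 (-3.16 ± 0.27, adjusted p = 6.79e-08, scaled -3.80). Thus 1 of the 3 genes described as COL16 moved against the other 2. At 24 h it was on its way back but still down-regulated, at 50.3, 105 and 98.5 FPKM in J24 (-1.15, adjusted p = 0.0108; -0.81 without library 1 of J24) and 55.4, 75.8 and 58.3 FPKM in B24 (-1.91, adjusted p = 8.21e-05).

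COL5 promotes flowering in Arabidopsis when it is overexpressed in short days. The gene Seita.4G192300, at the 99.5th percentile of all genes by mean FPKM, was at 359.9, 229.9 and 297 FPKM in J12, against 978, 1083 and 1062 FPKM in J0 (-1.84 ± 0.26, adjusted p = 1.75e-05, scaled -2.40). In B12 it was at 412, 396 and 554 FPKM, against 847, 921 and 939 FPKM in B0 (-1.005, adjusted p = 0.00283, scaled -1.66), a fold that crossed the limit so narrowly that leaving out any one of 4 libraries took it below (-0.92 to -0.99). Seita.7G153500 was at 54.8, 34.3 and 33.8 FPKM in J12, against 262, 239 and 239 FPKM in J0 (-2.59, adjusted p = 9.74e-08, scaled -3.15), and at 71.9, 75.5 and 102 FPKM in B12, against 317, 301 and 328 FPKM in B0 (-1.93, adjusted p = 1.85e-06, scaled -2.58). It had returned to 256, 331 and 279 FPKM in J24 and 281, 439.9 and 229.9 FPKM in B24.

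Seita.1G228800 was at 10.1, 6.13 and 6.15 FPKM in J12, against 69.5, 174 and 111 FPKM in J0 (-3.75, adjusted p = 1.27e-07, scaled -4.26), and at 14.4, 15.9 and 17.3 FPKM in B12, against 105, 94.3 and 96.8 FPKM in B0 (-2.56, adjusted p = 5.71e-06, scaled -3.19). Its J0 libraries ranged widely but stayed above every J12 library. Seita.1G065300 was at 6.53, 9.43 and 12.7 FPKM in J12, against 40.5, 50.8 and 43.8 FPKM in J0 (-2.16, adjusted p = 7.98e-05, scaled -2.69), and at 8.63, 6.498 and 8.91 FPKM in B12, against 56.4, 66.1 and 73.5 FPKM in B0 (-2.88, adjusted p = 3.10e-06, scaled -3.49). At 24 h library 2 of B24 had 52.9 FPKM of this gene, against 18.0 and 17.4 FPKM in the other B24 libraries. In B24 vs B0 the gene was a call (-1.31, adjusted p = 0.00926) that was lost without library 1 or library 3 of B24 (-1.07 and -1.04).

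COL4 (Seita.9G228800) was the single gene up-regulated at 12 and 24 h in both varieties. COL4 represses flowering in Arabidopsis. It was at 7.10, 3.98 and 6.49 FPKM in J12, against 0.727, 2.42 and 0.898 FPKM in J0 (1.58, adjusted p = 0.00377, scaled 1.16), and at 6.84, 6.56 and 6.19 FPKM in B12, against 0.556, 0.354 and 0.132 FPKM in B0 (2.49, adjusted p = 6.50e-05, scaled 2.12). At 24 h it was at 4.69, 6.31 and 12.03 FPKM in J24 (1.86 ± 0.41, adjusted p = 0.00725) and 7.35, 1.32 and 5.26 FPKM in B24 (1.89 ± 0.41, adjusted p = 0.0023). At 12 h COL13 Seita.9G404500 (1.504, scaled 0.85) and COL7 Seita.6G082100 (1.12, scaled 0.63) were called up in B12 vs B0, calls that were lost with scaling, and were not called in J12 vs J0. The other COL13 gene and both COL2 genes were never called.

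**Figure D4:**
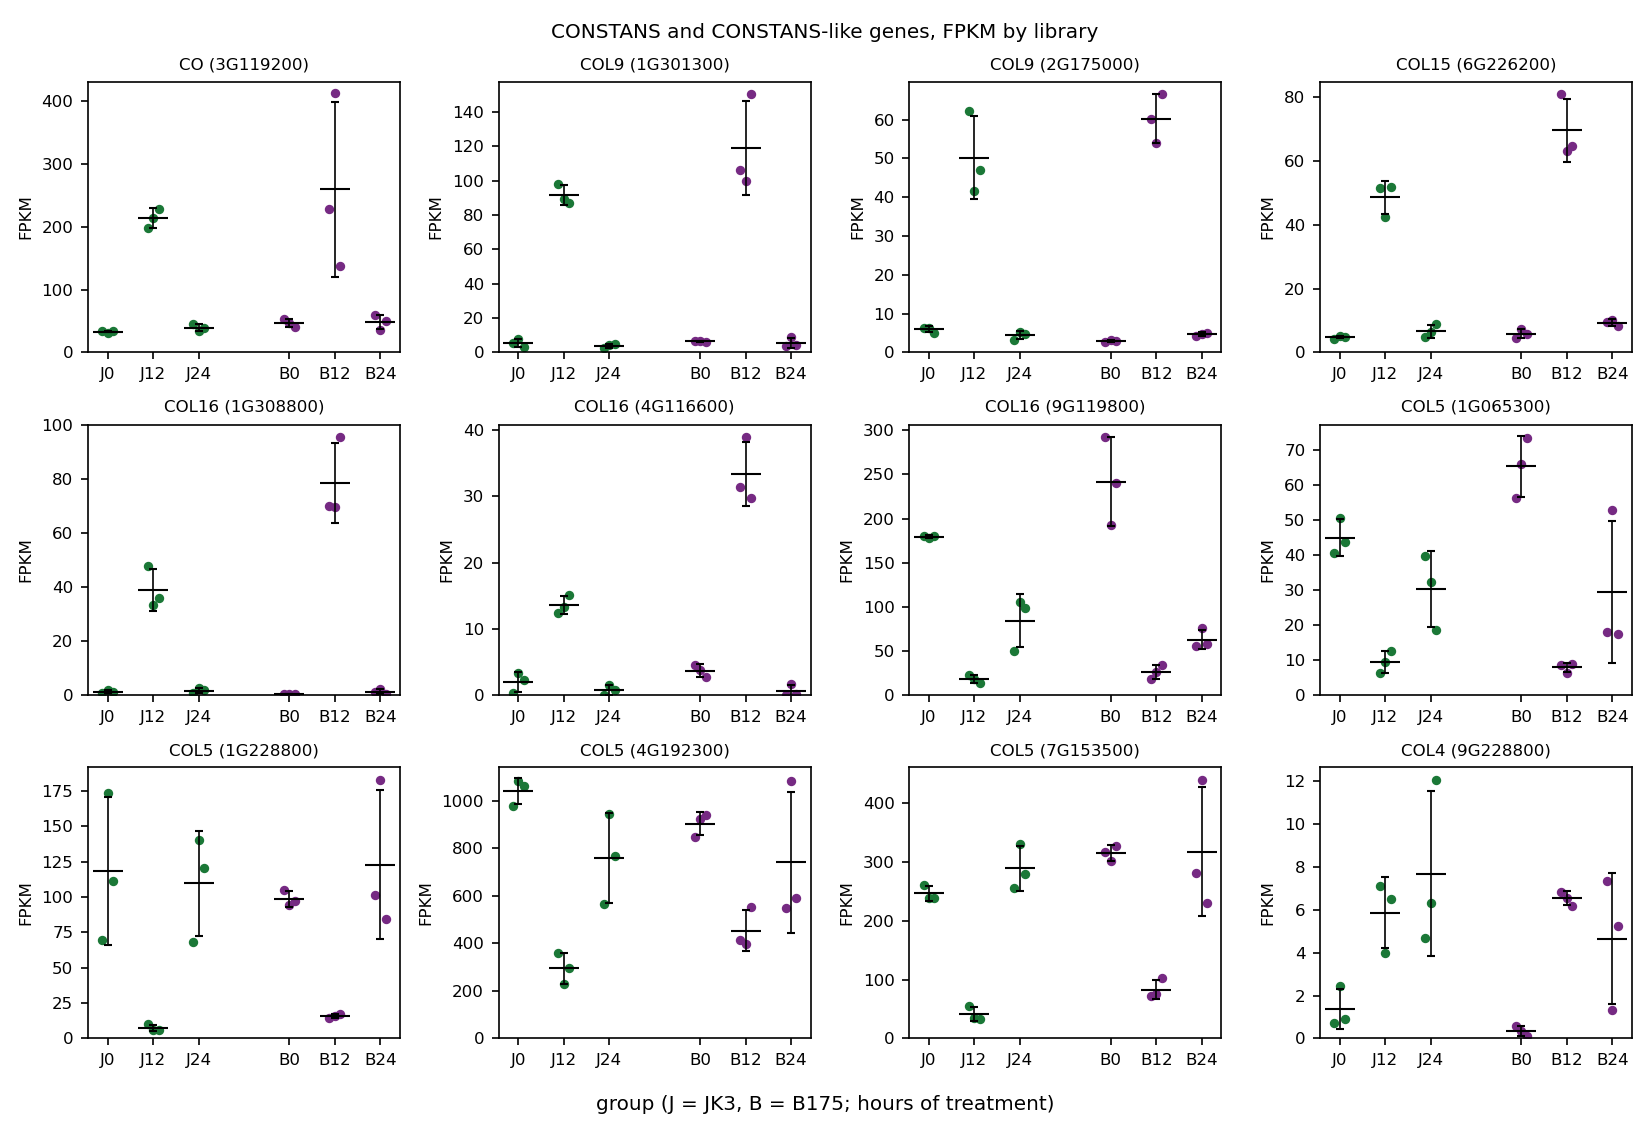
FPKM (vertical axes, linear from 0) of 12 CONSTANS and CONSTANS-like genes in each library (points) by group (JK3 left, B175 right), with the mean and SD of 3 libraries (bars). The CO, COL9, COL15 and first 2 COL16 panels peak at 12 h, the third COL16 panel and the 4 COL5 panels dip at 12 h, and COL4 stays high at 24 h (7.68 FPKM in J24, against 1.35 FPKM in J0).

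In the HEADING DATE and FLOWERING LOCUS T group, HDR1 (Seita.1G348900) fell in both varieties. In rice HDR1 represses heading in long days. It was at 53.2, 57.2 and 74.4 FPKM in J12, against 178, 164 and 195 FPKM in J0 (-1.54 ± 0.16, adjusted p = 9.72e-07, scaled -2.10). In B12 it was at 52.1, 51.5 and 51.7 FPKM, against 210.4, 195 and 239 FPKM in B0 (-2.02 ± 0.16, adjusted p = 3.32e-08, scaled -2.67). At 24 h it lay between, at 112, 121 and 122 FPKM in J24 and 136, 174 and 108 FPKM in B24.

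The florigen gene HD3A Seita.4G067600 was low and differed between the varieties. It was at 2.88, 2.19 and 1.46 FPKM in J0, each 0 FPKM in J12 and 3.11, 1.65 and 1.78 FPKM in J24. In B175 it was each 0 FPKM in B0, 0, 0.307 and 0 FPKM in B12 and 0, 0.0511 and 0.0484 FPKM in B24. In fragments this was 131 in the J0 libraries together, 0 in J12 and 129 in J24, against 0, 6 and 2 at the same times in B175. With a floor of 3 fragments over a group, the gene was at least 44.1-fold higher in J0 than in B0 and at least 44.5-fold lower in J12 than in J0. The ratio of J24 over B24 was 64.1 with a 95% counting interval of 17.4 to 535 (exact binomial, counting error only). The calls in J0 vs B0 (limma adjusted p = 1.17e-05), J24 vs B24 (adjusted p = 2.52e-05) and J12 vs J0 (adjusted p = 1.52e-06) held without any single library.

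HD3A Seita.5G317600 was likewise at 0.206, 0.971 and 2.29 FPKM in J0, each 0 FPKM in J12 and 3.91, 2.61 and 0.240 FPKM in J24, and each 0 FPKM in B0, each 0 FPKM in B12 and 0.256, 0.613 and 0.0484 FPKM in B24. By fragments it was at least 23.9-fold higher in J0 than in B0, but on the log2(FPKM + 1) scale neither J0 vs B0 (0.99, adjusted p = 0.0722) nor J12 vs J0 (-0.99, adjusted p = 0.0417) passed the limits. With scaling J12 vs J0 was a call (-1.08, adjusted p = 0.0463). The J24 vs J12 difference was a call with and without scaling (without it 1.49, adjusted p = 0.00488). The third HD3A gene, Seita.3G177300, had 16 fragments in all, each of them in J0 or J24, too few to test. Thus the 3 low HD3A genes had no fragment in J12 or B0.

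HD3A Seita.4G122200, the most abundant gene of that name, was shared by both varieties, with 10.4, 13.1 and 7.83 FPKM in J24, against 29.3, 14.9 and 17.4 FPKM in J0 (-0.88, adjusted p = 0.108). In B24 it was at 5.83, 14.95 and 9.92 FPKM, against 22.9, 23.2 and 23.7 FPKM in B0 (-1.20 ± 0.36, adjusted p = 0.0187). This HD3A gene lost the call without library 1 of B24 (-0.88) or library 3 of B0 (-1.18, limma adjusted p = 0.0519). At 12 h its log2 fold change was 0.18 in J12 vs J0 (scaled -0.36) and -0.76 in B12 vs B0, where it was a call only with scaling (-1.37).

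FT (Seita.7G146200) was low in both varieties, with library values of 0.0498 to 3.57 FPKM, and was not called. Ehd2 (Seita.9G247600), a zinc finger protein that promotes heading in rice, lay at 0.730 to 3.00 FPKM and was not called either. Differences of such genes are limited by depth: FT rested on 1 to 68 fragments per library.

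At 24 h fewer of the genes differed from 0 h. In J24 vs J0, 7 of 46 (15.2%) were called, 1 up and 6 down, against 7.42% of all genes (5.36% up and 2.06% down). In B24 vs B0, 16 of 46 (34.8%) were called, 3 up and 13 down, against 16.2% of all genes (10.2% up and 6.02% down). With scaling these were 8 (1 up and 7 down) in JK3, against 7.74% of all genes, and 14 (1 up and 13 down) in B175, against 16.8%. The JK3 count was 4 without library 1 of J24, and the B175 count was 15 without library 2 of B24. The 7 genes called in JK3 were all called the same way in B175: COL4 was up, and the PHOT1A pair, PIL13 Seita.2G029600 and Seita.9G067200, PIL15 Seita.5G034000 and COL16 Seita.9G119800 were down. The remaining 9 were called in B175 alone, among them PHYB, CRY1 Seita.7G119400, FYPP3 (1.07) and COL13 Seita.9G404500 (1.13), and the calls of FYPP3 and COL13 were lost with scaling (0.90 and 0.95). Calls in B175 alone also outnumbered those in JK3 alone over all genes, at 11.1% and 2.29%.

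Between 12 and 24 h most of the genes called at 12 h were called in the reverse direction. The same held over all genes. In J24 vs J12, 21 of 46 were called, 11 up and 10 down, against 26% of all genes (7.3% up and 18.7% down). In B24 vs B12, 21 of 46 were called, 8 up and 13 down, against 26.6% of all genes (7.86% up and 18.8% down). With scaling these were 14 up and 9 down in JK3 (all genes 11.3% and 9.68%) and 11 up and 9 down in B175 (all genes 11.6% and 10.3%). Of 11 genes up and 16 down in J12, 8 (72.7%) and 10 (62.5%) were so called by 24 h (all genes 61.0% and 68.6%). Of 13 genes up and 12 down in B12, 10 (76.9%) and 8 (66.7%) were so called (all genes 53.1% and 53.2%). PIL13 Seita.9G067200 was not among them (0.65 in J24 vs J12 and 0.13 in B24 vs B12). Without library 1 of J24 it was a call in J24 vs J12 (1.07, limma adjusted p = 0.0140). After scaling, its mean FPKM was 18.8 in J12 and 45.9 in J24, and 28.3 in B12 and 43.8 in B24. By group means, 17, 21 and 8 of the 46 genes were highest at 0, 12 and 24 h in JK3, and 20, 20 and 6 in B175. Of all genes 22.0% in JK3 and 22.9% in B175 were highest at 0 h. A larger share of all genes was highest at 12 h, 61.1% in JK3 and 57.8% in B175. Of the 46 genes, 45.7% and 43.5% were highest at 12 h. With scaling, 21, 15 and 10 were highest at these times in JK3 (35.3% of all genes at 0 h) and 23, 15 and 8 in B175 (36.8% at 0 h). The scaled 12 h shares of all genes were 38.6% in JK3 and 36.8% in B175, against 32.6% of the 46 genes in each variety.

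Direct comparison of the varieties gave few calls. In J0 vs B0, 3 of 46 genes (6.52%) were called, 2 up and 1 down (1 up and 2 down with scaling), against 12.8% of all genes (6.78% up and 6.02% down). In J12 vs B12 it was 1 of 46 (2.17%), down, against 6.35% of all genes (2.38% down), and in J24 vs B24 again 1 of 46, up, against 4.55% (2.28% up). The 3 at 0 h included HD3A Seita.4G067600 and COL13 Seita.9G404500, which was at 91.5, 162 and 120.0 FPKM in J0, against 57.1, 56.6 and 59.3 FPKM in B0 (1.06 ± 0.17, adjusted p = 3.45e-04). The COL13 call was lost with scaling (0.94) and without library 2 of J0 (0.85). The gene at 12 h was COL5 Seita.7G153500, with the J12 and B12 values given above (-1.02 ± 0.22, adjusted p = 0.00723), which fell below the fold limit without library 3 of B12 or library 2 or 3 of J12 (-0.87 to -0.92). The gene at 24 h was HD3A Seita.4G067600. Without library 1 of J0 the J0 vs B0 count was 5, and without library 3 of B24 or of J24 the J24 vs B24 count was 2.

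The change with time differed between the varieties for 6 genes at 12 h (13.0% of those tested, against 5.87% of all genes) and for 2 at 24 h (4.35%, against 2.52%), by a limma interaction at an adjusted p under 0.05. The interaction is the JK3 change minus the B175 change. It was positive for 2 and negative for 4 of the 6 genes at 12 h (all genes 2.28% and 3.58%), and positive for 1 and negative for 1 at 24 h (all genes 0.52% and 2%). At 12 h it was -1.20 ± 0.26 for PHOT2 (adjusted p = 0.0129), which fell further in JK3. It was 1.496 ± 0.34 for PIL13 Seita.9G160700 (adjusted p = 0.0163), a gene at 6.14, 12.4 and 5.10 FPKM in J12, against 25.7, 19.4 and 22.1 FPKM in J0, and at 4.02, 5.79 and 4.53 FPKM in B12, against 47.9, 39.2 and 45.3 FPKM in B0. It fell in both varieties (-1.48 in JK3 and -2.97 in B175, scaled -1.98 and -3.55), and its B0 libraries lay above its J0 libraries.

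For COL9 Seita.2G175000 the interaction was -1.11 ± 0.26 (adjusted p = 0.0194, not past 0.05 without library 3 of B12 or library 2 of J12), and the gene rose in both varieties, by less in JK3. For COL13 Seita.9G404500 it was -1.34 ± 0.24 (adjusted p = 0.00441), with 157, 131 and 123 FPKM in J12 and 155, 167 and 174 FPKM in B12. The B0 libraries of this gene stood below every other library. For HD3A Seita.4G067600 it was -1.77 ± 0.26 (limma adjusted p = 9.77e-04). This HD3A gene had 0 fragments in B0 and so could not fall in B175. Its interaction therefore cannot be told apart from its difference between the varieties at 0 h. At 24 h the interaction was -1.07 ± 0.24 for COL13 (adjusted p = 0.0271). This call was lost with scaling (limma adjusted p = 0.0579), with voom on the same scaling factors (0.0714) and with the compared groups alone (0.0936). It was also lost without any one of 7 libraries, at an adjusted p of 0.0563 to 0.0765 (B0 1, 2 or 3, B24 1, J0 3, and J24 1 or 2). These interactions and the variety calls at 0 h share the B0 and J0 libraries.

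**Figure D5:**
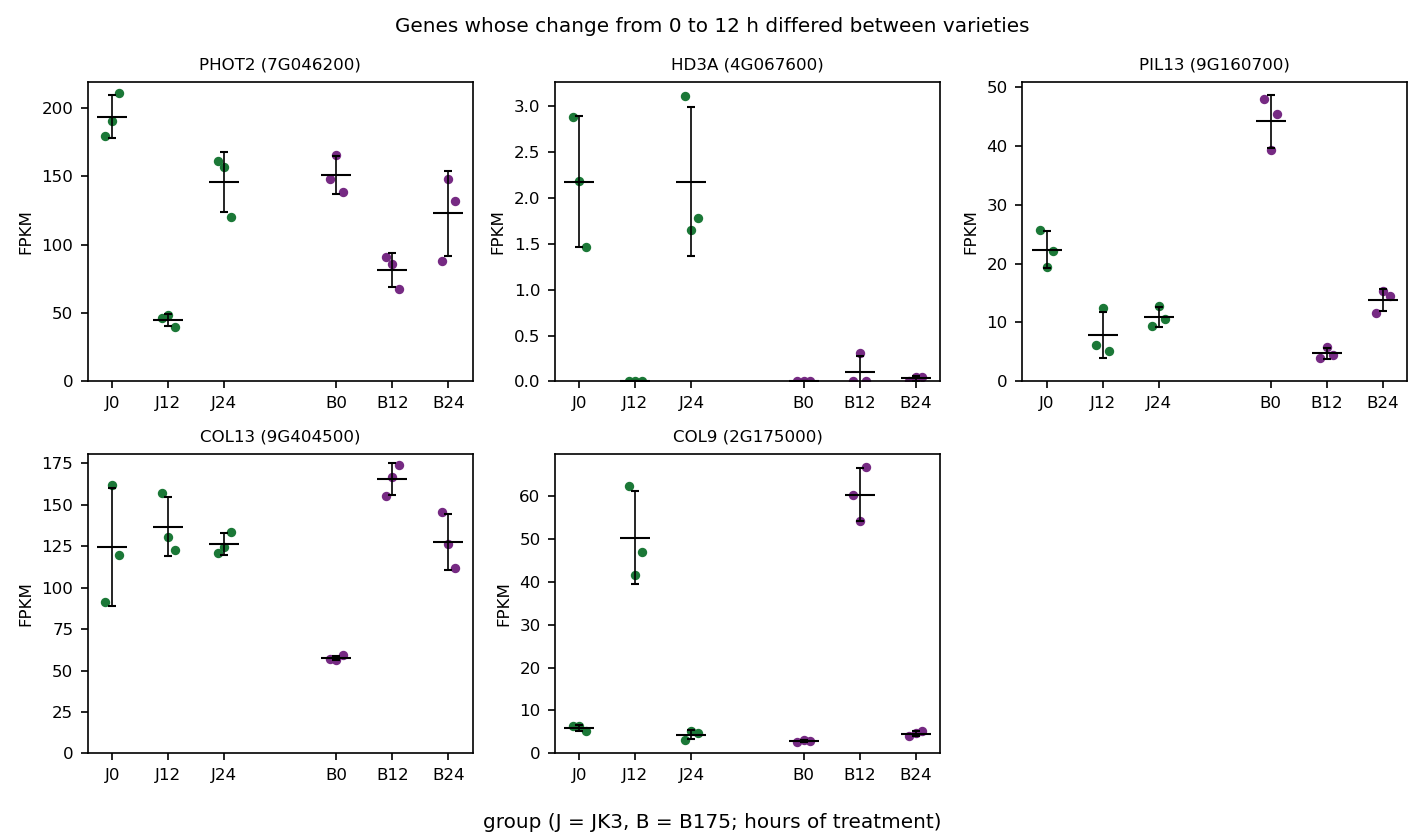
FPKM (vertical axes, linear from 0) in each library (points) by group (JK3 left, B175 right) of 5 genes whose change between 0 and 12 h differed between the varieties, with the mean and SD of 3 libraries (bars). HD3A Seita.4G067600 is at 1.46 to 3.11 FPKM in J0 and J24 and at most 0.307 FPKM in every other library, and PHOT2 is at 39.6 to 48.3 FPKM in J12, against 179 to 211 FPKM in J0.

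Genes of the same pathways outside this set were listed by description and counted in the same fits. Those named were chosen after their values were seen. Each list's counts without scaling stand against 24% of all genes up and 7.67% down in J12 vs J0 and 28% up and 9.81% down in B12 vs B0. The scaled counts stand against 12.7% up and 12.4% down in J12 vs J0 and 15.4% up and 16.1% down in B12 vs B0. Of 29 tested genes of light signal transduction, which include the COP1, SPA, DET1 and HY5 genes and many described as ultraviolet-B receptor UVR8, J12 had 3 up and 10 down against J0, and B12 had 2 up and 11 down against B0 (with scaling 1 and 11 in J12, and 1 and 13 in B12). HY5 (Seita.1G043800), a transcription factor of light responses that COP1 targets for breakdown, averaged 3.92 FPKM in J12, against 222 FPKM in J0 (-5.15, adjusted p = 5.21e-07), and 3.72 FPKM in B12, against 383 FPKM in B0 (-6.33, adjusted p = 3.79e-08). Of 13 B-box genes 5 were up and 5 down in J12, and 4 up and 6 down in B12 (with scaling 3 and 6 in J12, and 3 and 7 in B12). Of 27 photoperiod and clock genes 7 were up and 8 down in J12, and 9 up and 8 down in B12 (with scaling 5 and 9 in J12, and 5 and 11 in B12). GIGANTEA (GI, Seita.5G129500), a clock-controlled protein upstream of CONSTANS, averaged 273 FPKM in J12, against 4.79 FPKM in J0 (5.73, adjusted p = 3.37e-10), and 305 FPKM in B12, against 3.62 FPKM in B0 (6.08, adjusted p = 1.47e-10).

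Of 10 phototropin partners 2 were up and 4 down in J12, and 1 up and 4 down in B12 (with scaling 0 and 5 in J12, and 1 and 4 in B12). RPT2 (Seita.7G303000), which acts with phototropin in bending towards light, averaged 7.66 FPKM in J12, against 601 FPKM in J0 (-6.13, adjusted p = 3.03e-12), and 7.11 FPKM in B12, against 666 FPKM in B0 (-6.35, adjusted p = 2.09e-12). The FAR1-type genes, kin to transcription factors of far-red signalling, had few calls, with 2 of 25 up and 0 down in J12, and 3 up and 0 down in B12 (with scaling 1 and 0 in J12, and 1 and 1 in B12). Of 10 floral integrators 0 were up and 2 down in either variety: the MADS-box gene MADS18 (Seita.2G383000) and GHD7 (Seita.9G323600), a repressor of flowering in rice. With scaling these were 3 down in J12 and 2 in B12. GHD7 averaged 0.213 FPKM in J12, against 122 FPKM in J0 (-6.50, adjusted p = 7.98e-11), and 0.195 FPKM in B12, against 189 FPKM in B0 (-7.31, adjusted p = 1.77e-11). At 24 h against 0 h the 27 clock genes had 1 up and 0 down in JK3 and 2 up and 3 down in B175. The 29 light signalling genes had 1 up and 0 down in JK3 and 0 up and 2 down in B175. Of all genes, 5.36% were up and 2.06% down in J24 vs J0, and 10.2% up and 6.02% down in B24 vs B0.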

How the data were processed

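RNA of 18 leaf libraries was analysed from 1 deposited table of FPKM, which the authors computed per gene and library, with gene identifiers of the Phytozome annotation. The submitters' processing notes name fastp, HISAT2, HTSeq, R 3.2.0 and DESeq2, without roles. The FPKM are whole multiples of the value of 1 fragment, so fragments were recovered for all 29108 genes (100%, tolerance 0.001), at 34738627 to 38798886 per library. For each gene these are the smallest whole numbers that fit, so a factor common to all its libraries is not known. Of the gene lengths they imply, 98.1% were whole numbers, and 96.7% of those were multiples of 3. Genes with a mean of at least 0.1 FPKM (23824) were tested on log2(FPKM + 1) with limma 3.58.1 in R 4.3.3, as 6 group means with an intensity trend. Calls needed an absolute log2 fold change above 1 and a Benjamini-Hochberg adjusted p under 0.05, and interactions the adjusted p alone. The fit was tested on simulated data. Depth gives low genes little precision, and counting intervals and floors cover counting error only.

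Named genes were each light receptor, CO and each HEADING DATE or FLOWERING LOCUS T gene; the 4 largest calls in each direction of each comparison with non-overlapping groups; each interaction call; and the most abundant gene of each role. Some genes given with values, among them EID1, COL7 and PKS4, were named outside these rules. Members, pathway lists and markers were chosen with earlier results of these data known. Alternatives were a pseudocount of 0.1, no filter, a mean of at least 1 FPKM, median-ratio scaling, quantile normalization, a replicate block, the compared groups alone, voom on the recovered fragments, and leaving out each library. Voom used the same median-ratio factors, so it is not independent of the scaling. The deposited identifiers matched 0 of 49 entries of the RefSeq gene table, so no sequence is shown. Values of some member genes are not reported here, but these genes count in every total.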

Additional observations from a re-analysis of the deposited data

Results flagged for a closer look

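Between 0 and 12 h the change of 6 genes differed between the varieties by limma's interaction of variety and time, given as the JK3 change minus the B175 change. The values included -1.11 for COL9 Seita.2G175000 (adjusted p = 0.0194), -1.77 for HD3A Seita.4G067600 (adjusted p = 0.000977), -1.20 for PHOT2 Seita.7G046200 (adjusted p = 0.0129), 1.496 for PIL13 Seita.9G160700 (adjusted p = 0.0163) and -1.34 for COL13 Seita.9G404500 (adjusted p = 0.00441). Between 0 and 24 h it differed for COL13 Seita.9G404500, among 2 genes, with -1.07 (limma adjusted p = 0.0271). This call was lost with scaling, with voom on the same scaling factors, with the compared groups alone and without any one of 7 libraries (adjusted p between 0.0563 and 0.0936).

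HD3A Seita.4G067600 had 0 fragments in B0 and so could not fall in B175. This gene (1.64 in J0 vs B0) and COL13 Seita.9G404500 (1.06) already differed between the varieties at 0 h by the call limits. PIL13 Seita.9G160700 was at -0.95 in that comparison, under the fold limit, with groups that did not overlap. PHOT2 was at 0.36 in it (adjusted p = 0.166). Groups of 3 libraries were too small for a formal test of single outlying values, and none was run.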

How the results depend on the processing

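No called direction reversed under any alternative. Counts of calls stayed within 1.5 times except where named here. J0 vs B0 (3 calls) had 6 with a pseudocount of 0.1. J12 vs B12 (1 call) had 3 with the compared groups alone, with quantile normalization and with voom. J24 vs B24 (1 call) had 0 with a mean of at least 1 FPKM, since HD3A Seita.4G067600 was then not tested. The 24 h interaction (2 calls) had 1 with the compared groups alone, with median-ratio scaling and with voom. The cause of the other changes was not tested. Voom used the same median-ratio factors as scaling, so it is not a separate check of it. It gave 8 up and 19 down in J12 vs J0 and 9 up and 19 down in B12 vs B0.

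Leaving out single libraries gave 24 to 27 calls in J12 vs J0, 24 to 25 in B12 vs B0, 4 to 8 in J24 vs J0, 13 to 15 in B24 vs B0, 20 to 23 in J24 vs J12 and in B24 vs B12, 2 to 5 in J0 vs B0, 0 to 1 in J12 vs B12, 1 to 2 in J24 vs B24, 4 to 8 for the 12 h interaction and 1 to 3 for the 24 h interaction. The last was 1 without any one of the B0 libraries, library 1 of B24, library 3 of J0 or library 1 or 2 of J24. The genes highest at 0, 12 and 24 h numbered 16 to 19, 20 to 22 and 7 to 10 in JK3 and 19 to 23, 18 to 20 and 3 to 9 in B175, where 3 at 24 h came without library 2 of B24.

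The replicate numbers did not pair the samples: the correlations of same-numbered deviations lay between -0.178 and 0.331, and in 0 comparisons were all above 0.1. With the number as a replicate block, J12 vs B12 had 2 calls.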
